A study of Mus musculus with 4 samples.

Results

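The genes described here are 10 regulators that drive cardiomyocyte fate, *Nkx2-5*, *Tbx5*, *Tbx20*, *Gata4*, *Gata5*, *Gata6*, *Mef2c*, *Hand1*, *Hand2* and *Smyd1*. They were chosen by gene name, and all 10 were found among the 24637 genes of the deposited table. RNA was sequenced from 2 WT embryonic stem cell (ESC) lines, genotype Taf4+/+, and 2 lines labelled Taf4a-/-, differentiated for 5 days in embryoid bodies and then for 9 days plated on gelatin. The lines came from blastocysts of Taf4a+/- crosses, and the mutant allele lacks internal exons of *Taf4a*, which encodes a subunit of the general transcription factor TFIID. All 4 lines had been kept on mouse fibroblast feeders. The authors' paper describes 2 independent lines per genotype, the labels give only replicate numbers, and no text says that equal numbers are paired. On that basis the p-values measure the spread between lines of the same genotype, estimated in part from all genes tested.

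Cardiac fate is set by a small network of DNA-binding proteins that act together on shared enhancers. *Nkx2-5*, a homeodomain protein, *Tbx5* and *Tbx20*, T-box proteins, and *Gata4*, *Gata5* and *Gata6*, zinc finger proteins, bind one another and activate genes of the contractile apparatus. *Mef2c*, a MADS-box factor, and *Hand1* and *Hand2*, basic helix-loop-helix factors, shape the ventricles and outflow tract. *Smyd1* is not itself a DNA-binding factor but a striated-muscle methyltransferase needed for ventricle growth. Most of these genes are also used elsewhere, GATA factors in extra-embryonic endoderm, *Mef2c* in skeletal muscle, endothelium and myeloid cells, *Hand1* in trophoblast and extra-embryonic mesoderm, and *Hand2* in neural crest and limb.

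The libraries held between 21732746 and 27733034 reads on genes. Values are normalized read counts, that is, reads of a gene divided by a size factor of the library. Genotypes were compared with limma on log2(value + 1), a scale that understates the change of low genes, for the 16926 genes whose mean reached 10 normalized counts. Genes with a p-value under 0.05 after Benjamini-Hochberg adjustment are termed called. Of the genes tested, 17.3% were called lower and 11.3% were called higher in the libraries labelled Taf4a-/-. These were 2928 and 1906 genes, and 2460 and 2624 with quantile normalization. *Taf4a* RNA itself, at 889 and 678 normalized counts in the WT lines, reached 1722 and 1799 where the label was Taf4a-/-, a rise of 1.18 on the log2 scale (limma adjusted p = 0.00569). Its paralogue *Taf4b* rose from 263 and 162 to 534 and 534 (limma adjusted p = 0.0143). *Taf4a* RNA was thus higher and not lower with that label, and a count over the whole gene does not separate the deleted exons. Every direction below is that of the labels.

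The 10 factors did not move as one. *Tbx5*, *Nkx2-5*, *Smyd1* and *Mef2c* fell 2.96-fold or more, and *Gata4* and *Gata6* fell less, so that 6 of the 10 were called lower, beside 17.3% of all genes tested. By limma 0 were called higher, beside 11.3% of all genes, and limma's voom on recovered reads also gave 0, beside 10.7%. At an unadjusted p-value under 0.05, 2 were higher, *Hand1* and *Hand2*, whose values were larger in both libraries labelled Taf4a-/- than in either WT library. *Tbx20* and *Gata5* passed neither threshold. The share of all genes past the unadjusted threshold was not computed, here or beside the lists below. Without WT replicate 2, 3 factors were called lower, beside 7.22% of all genes in that fit. Without WT replicate 1, 2 were called higher, beside 14.6%. All 10 passed the filter on low values. Their median log2 fold change was -0.71, beside -0.01 over all genes tested. Without regard to the test, the values of the genotypes did not overlap for 7 factors that were lower, as for 36.6% of all genes tested, and for 2 that were higher, as for 34.5%. In cultures of mixed cells, fewer cells of a type and less RNA per cell cannot be told apart.

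**Figure D1:**
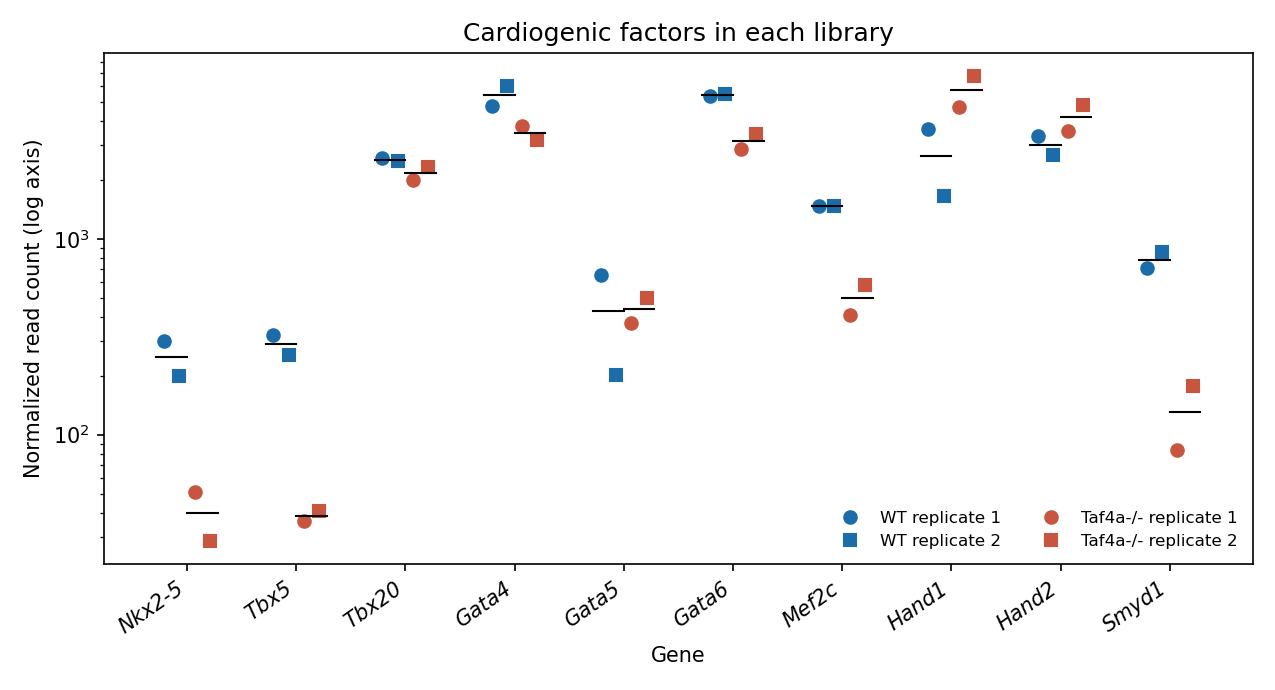
Normalized read count (log axis) of each of the 10 factors in each of the 4 libraries, with WT in blue, libraries labelled Taf4a-/- in red, circles for replicate 1, squares for replicate 2 and black lines for the mean of a genotype. *Nkx2-5*, *Tbx5*, *Mef2c* and *Smyd1* separate widely, whereas the values of *Gata5* overlap.

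Promoters were looked at because the TFIID complex, to which Taf4 belongs, assembles there and holds the TATA-binding protein. The RefSeq promoter entries (build GRCm38.p6) matched 6 of the 10 factors, with 3 starts for *Mef2c* and 1 for each of the others, and *Tbx5*, *Gata4*, *Gata6* and *Hand1* were not analysed here. The 250 bases before the start are printed for 2 factors that were called lower and 2 that were not, on the strand of the gene, from 5′ to 3′. Capitals mark every match, on either strand, to the TATA box TATAAA, the GATA sites AGATAA and TGATAA, the NK2 sites CAAGTG and TAAGTG, the T-box site AGGTGTG, the MEF2 sites, the Hand E-box CATCTG, the CCAAT box CCAAT and the GC box GGGCGG. No matches in the printed windows overlapped one another.
Nkx2-5, called lower, chr17:26841566-26841815, minus strand: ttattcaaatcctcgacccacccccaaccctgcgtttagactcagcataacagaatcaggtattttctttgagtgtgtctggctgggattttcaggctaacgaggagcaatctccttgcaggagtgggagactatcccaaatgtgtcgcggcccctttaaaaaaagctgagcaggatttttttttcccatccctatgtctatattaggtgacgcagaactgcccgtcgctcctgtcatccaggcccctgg
Smyd1, called lower, chr6:71262282-71262531, minus strand: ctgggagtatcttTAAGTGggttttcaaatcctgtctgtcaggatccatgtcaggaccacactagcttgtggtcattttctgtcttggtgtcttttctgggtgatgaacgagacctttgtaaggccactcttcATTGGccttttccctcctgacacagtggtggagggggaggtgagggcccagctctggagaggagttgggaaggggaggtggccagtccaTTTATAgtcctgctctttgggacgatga
Tbx20, not called, chr9:24774304-24774553, minus strand: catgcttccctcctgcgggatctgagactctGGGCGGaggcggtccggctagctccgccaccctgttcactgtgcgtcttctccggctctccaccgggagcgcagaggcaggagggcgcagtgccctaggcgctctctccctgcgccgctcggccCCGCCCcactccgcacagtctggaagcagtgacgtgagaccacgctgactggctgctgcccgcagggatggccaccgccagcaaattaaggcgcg
Hand2, not called, chr8:57320733-57320982, plus strand: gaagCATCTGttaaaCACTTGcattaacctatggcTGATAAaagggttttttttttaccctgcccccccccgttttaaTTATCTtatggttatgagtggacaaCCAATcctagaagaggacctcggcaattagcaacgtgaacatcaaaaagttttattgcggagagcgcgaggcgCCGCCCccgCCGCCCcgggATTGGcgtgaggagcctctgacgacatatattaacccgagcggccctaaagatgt

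Among 32851 RefSeq promoters, 12.4% held TATAAA on either strand in this window. *Smyd1* held it, read on the opposite strand, 28 bases before the start, and *Mef2c* held it at 2 of its 3 starts. *Nkx2-5*, *Tbx20*, *Hand2* and *Gata5* did not. The GC box, in 32.7% of all promoters, was present in *Tbx20*, *Hand2* and *Gata5* and at 1 start of *Mef2c*, but not in *Nkx2-5* or *Smyd1*. An NK2 site, in 18.4% of promoters, was found in *Smyd1*, *Hand2* and 1 start of *Mef2c*. GATA sites, in 16.6% of promoters, were found only in *Hand2*, and the T-box site, in 5.1%, only at 1 start of *Mef2c*. The Hand E-box, in 14.4%, was in *Hand2* and 1 start of *Mef2c*, and the CCAAT box, in 33.8%, was in *Hand2*, *Smyd1* and 2 starts of *Mef2c*. No MEF2 site was found, and 0.244% of promoters held one. CpG dinucleotides, counted after the values were seen, numbered 22 in *Tbx20*, 22 in *Gata5* and 15 in *Hand2*, and 8 in *Nkx2-5*, 2 in *Smyd1* and 1 to 6 in *Mef2c*. Of all promoters, 86.7% held 22 or fewer, 74.6% held 15 or fewer and 59.7% held 8 or fewer. As few as *Smyd1* were held by 29%, and as few as the starts of *Mef2c* by 18.8% to 53.7%. These matches describe the letters of the window and not binding. A link between these letters or CpG counts and the calls was not tested. *Tbx5*, *Gata4* and *Gata6*, also called lower, had no entry.

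*Nkx2-5* (ENSMUSG00000015579, chr17:26975609-26978510 of NCBIM37, minus strand) was at 302 normalized counts in WT replicate 1 and 198 in WT replicate 2, against 50.9 in Taf4a-/- replicate 1 and 28.8 in Taf4a-/- replicate 2. Values of other genes follow in the same order. Both mutant-labelled values lie well below the lower WT value. The log2 fold change was -2.64 (standard error, SE, 0.38, 95% interval -3.56 to -1.73, limma adjusted p = 0.00639). The count of 28.8 rested on 26 reads, the smallest number for any of the 10 factors. *Nkx2-5* marks the earliest cardiac progenitors and is kept on in working myocardium. In the same libraries the summed level of 8 cardiomyocyte markers had a 12.6-fold lower mean, and its part in the falls of *Nkx2-5*, *Tbx5*, *Smyd1* and *Mef2c* was not tested.

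*Tbx5*, needed for the atria and the left ventricle (ENSMUSG00000018263, chr5:120284672-120335227, plus strand), had 324 and 256 normalized counts in WT against 36.2 and 40.9 with the label Taf4a-/-. The mutant-labelled libraries were close to each other, and the fall of 2.87 on the log2 scale (SE 0.26, limma adjusted p = 0.00203) was the largest of the 10. *Tbx20*, a T-box factor of myocardium and valve endocardium (ENSMUSG00000031965, chr9:24527648-24578746, minus strand), had 2572 and 2503 normalized counts in WT against 2005 and 2331 with the label Taf4a-/-. Its values did not overlap but lay close together. The log2 fold change was -0.23 with a 95% interval of -0.53 to 0.07 (limma adjusted p = 0.21), so a fall of the size of that of *Tbx5* lies outside this interval. Per kb of annotated exon, *Tbx5* had 0.143 and 0.116 of the level of *Tbx20* in WT, and 0.0206 and 0.0200 in the libraries labelled Taf4a-/-. On log2(value + 1), without regard to length, the ratio of the pair shifted by -2.64. With 2 libraries against 2 no exact permutation test can pass, and this shift reached the smallest p possible, 0.333 (two-sided, 0.556 after adjustment over 5 ratios).

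*Smyd1* (ENSMUSG00000055027, chr6:71163934-71272227, minus strand) had 707 and 853 normalized counts in WT against 83.2 and 177 with the label Taf4a-/-. All of its mutant-labelled values were far below WT, although those differed from each other by 1.08 on the log2 scale. The log2 fold change was -2.67 (SE 0.36, limma adjusted p = 0.00537). Without WT replicate 2 it was -2.53 and not past the threshold (adjusted p = 0.0626). In such fits the lone library of a genotype is assumed to vary like the other genotype. *Krcc1* and *Gm1070* lie on the opposite strand within the span of *Smyd1*, but share no annotated exon base with it.

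*Mef2c* (ENSMUSG00000005583, chr13:83643033-83806684, plus strand) had 1473 and 1462 normalized counts in WT against 407 and 584 with the label Taf4a-/-. The WT libraries were almost equal and the mutant-labelled ones were both far below them, a 2.96-fold lower mean. Its log2 fold change was -1.59 (SE 0.19, 95% interval -2.06 to -1.12, limma adjusted p = 0.00398). *Mef2c* is used by several other cell types, some of whose markers moved as well. All 8 macrophage markers were called lower, beside 17.3% of all genes tested. Their summed level was 9098 and 10979.6 normalized counts in WT and 179 and 202 in the libraries labelled Taf4a-/-. *C1qa* was at 0 in both of the latter. Of 8 endothelial markers 0 were called by limma, and 2 were lower at an unadjusted p-value under 0.05, with sums of 7635 to 11819 in WT and 6215 to 10649.5 otherwise. Of 3 skeletal muscle markers tested 1 was called higher, beside 11.3% of all genes tested. Over the 7 found, the sums were 309 and 237 against 275 and 280.0. *Myod1* was at 0 in both libraries labelled Taf4a-/-. The part of these cells in the *Mef2c* value was not tested.

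**Figure D2:**
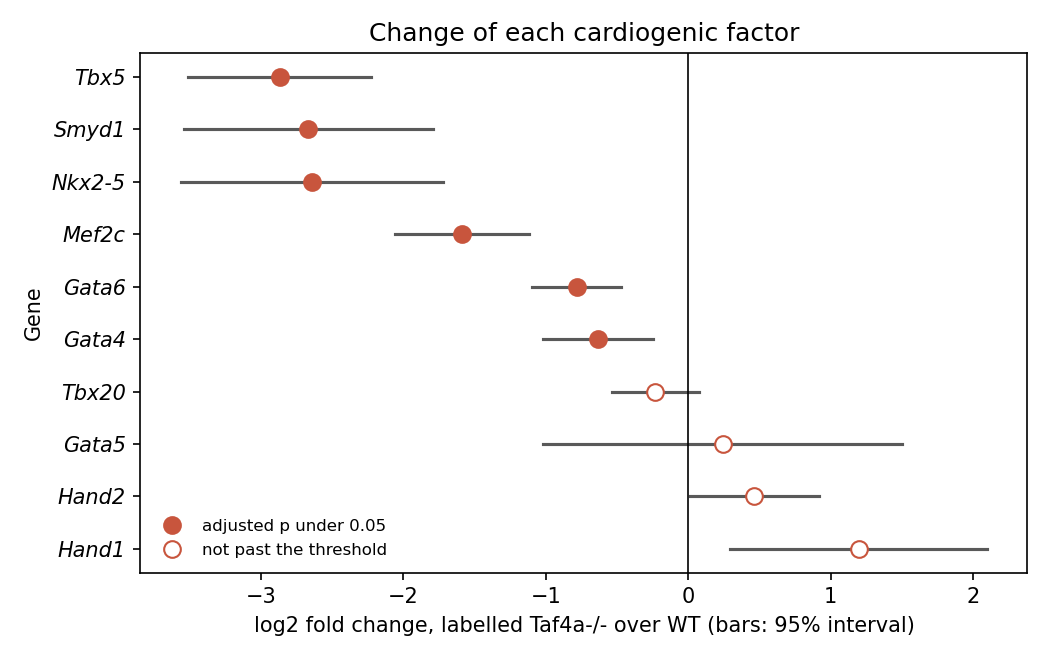
log2 fold change of each factor, libraries labelled Taf4a-/- over WT, with the 95% interval from limma (n = 2 libraries per genotype). Filled points passed an adjusted p-value of 0.05. The order runs from *Tbx5* at -2.87 to *Hand1* at 1.20, and only the intervals of *Tbx20* and *Gata5* include 0.

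The GATA factors fell less than these 4 genes or did not fall. *Gata4* (ENSMUSG00000021944, chr14:63817759-63890529, minus strand), which recruits *Nkx2-5* and *Tbx5* to cardiac enhancers and also acts in endoderm, had 4762 and 6041 normalized counts in WT against 3748 and 3193 with the label Taf4a-/-. The log2 fold change was -0.63 (SE 0.16, limma adjusted p = 0.0323), and the genotypes did not overlap. This call was the least firm of the 6. It was lost without WT replicate 2 (-0.46, adjusted p = 0.0966), without Taf4a-/- replicate 1 (-0.75, adjusted p = 0.0636) and without Taf4a-/- replicate 2 (-0.52, adjusted p = 0.189).

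*Gata6* (ENSMUSG00000005836, chr18:11052508-11085633, plus strand), a relative with overlapping roles in heart and primitive endoderm, had 5368 and 5455 normalized counts in WT against 2877 and 3432 with the label Taf4a-/-. Its log2 fold change was -0.78 (SE 0.13, limma adjusted p = 0.00979). The WT values were close together and above both others. The call was lost without WT replicate 2 (-0.77, adjusted p = 0.0528) and without Taf4a-/- replicate 1 (-0.66, adjusted p = 0.0795). A lincRNA gene on the opposite strand, *1010001N08Rik*, had 272 and 184 against 368 and 399 normalized counts. It shares 58 exon bases with *Gata6*, 1.82% of the exon length of *Gata6*, and reads there cannot be assigned because the library kit did not mark strand.

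*Gata5* (ENSMUSG00000015627, chr2:180059838-180069404, minus strand), a factor of endocardium and endoderm, had 653 and 203 normalized counts in WT against 370.03 and 501 with the label Taf4a-/-. Both mutant-labelled values lie between the WT values. The log2 fold change of 0.24 had a 95% interval from -1.02 to 1.503 (limma adjusted p = 0.751), wide enough to hold a change of 2-fold either way. Without WT replicate 1 it was 1.08 (adjusted p = 0.048), and without WT replicate 2 it was -0.60 (adjusted p = 0.164). An exon stretch of 258 bases, 7.87% of *Gata5*, is shared with *Gm14318* on the opposite strand, which had at most 9.95 normalized counts.

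Within the GATA trio the share of each factor overlapped between genotypes. Per kb of exon, *Gata6* made up 54.3% and 51.5% of the trio in WT and 45.7% and 52.6% in the libraries labelled Taf4a-/-, and *Gata4* 39.3% and 46.6% against 48.6% and 39.95%. The share of *Gata5* was 6.43% and 1.87% in WT, and 5.73% and 7.48% otherwise. Among the ratios of the trio, only *Gata5* to *Gata6* did not overlap between genotypes. Per kb it was 0.119 and 0.0362 in WT, and 0.125 and 0.142 in the libraries labelled Taf4a-/-. WT replicate 1 thus lay close to Taf4a-/- replicate 1, and WT replicate 2 was low. The shift was 1.03 on the log2 scale, at the smallest p the exact permutation test allows (0.333, adjusted 0.556). For *Gata4* against *Gata6* the shift was 0.15 (exact permutation p = 0.667, two-sided), and for *Gata4* against *Gata5* it was -0.87 (p = 0.667 in the same exact test).

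Visceral endoderm also uses *Gata4* and *Gata6*. Of 12 markers of it 10 were called lower, beside 17.3% of all genes tested. Their summed level was 106834 and 92545 normalized counts in WT against 7249 and 5589 in the libraries labelled Taf4a-/-. *Afp*, alpha-fetoprotein, fell from 42655 and 36728 normalized counts to 152 and 140.5, while *Sox17* (-0.34 on the log2 scale) and *Sox7* (-0.35) were not called. None of the 12 was at 0 in both libraries labelled Taf4a-/-. The part of this cell type in the falls of *Gata4* and *Gata6* was not tested.

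**Figure D3:**
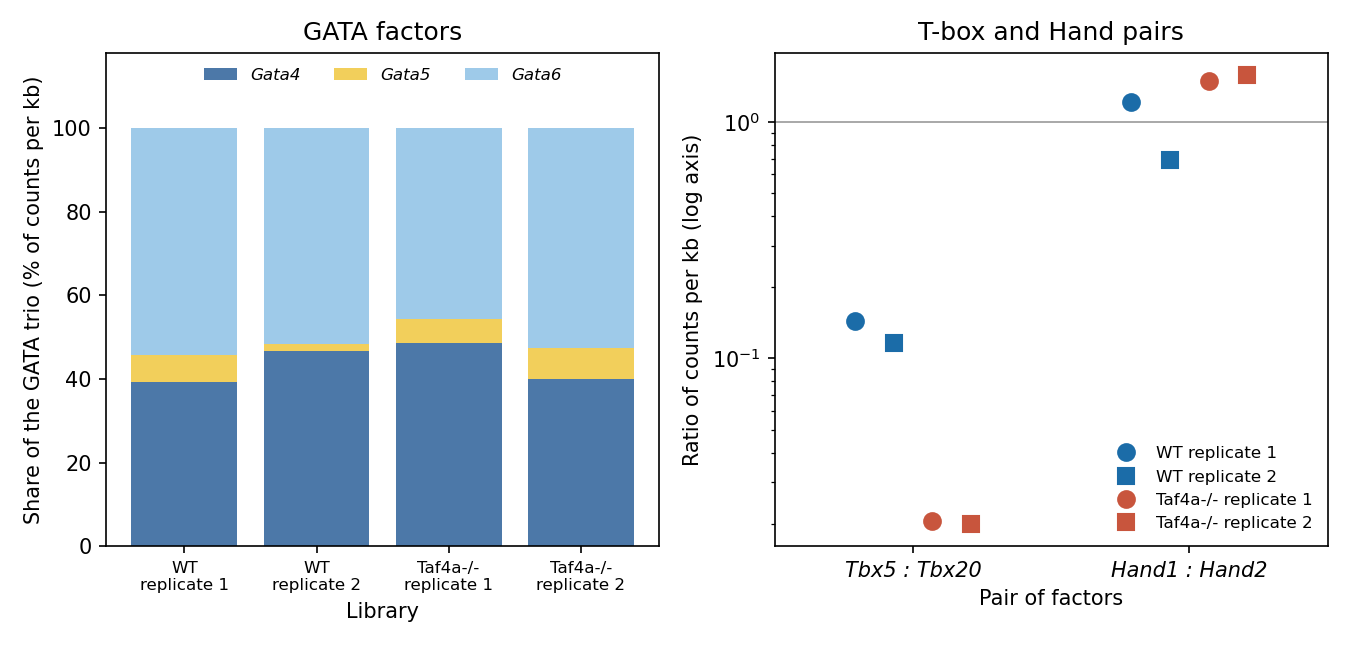
Left, the share of *Gata4*, *Gata5* and *Gata6* in their summed counts per kb of exon in each library, from 0 to 100%. Right, the ratio of counts per kb (log axis) of *Tbx5* to *Tbx20* and of *Hand1* to *Hand2*, one point per library. The T-box ratio is at or under 0.0206 in the libraries labelled Taf4a-/- against 0.116 or more in WT, and *Gata5* never exceeds 7.48% of the trio.

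The Hand factors stood on the other side of 0. *Hand1* (ENSMUSG00000037335, chr11:57642207-57646320, minus strand), a factor of the left ventricle, lateral and extra-embryonic mesoderm, had 3649 and 1661 normalized counts in WT against 4719 and 6754 with the label Taf4a-/-. The groups did not overlap, and the mean was 2.16-fold higher than in WT. The log2 fold change of 1.20 (SE 0.37, 95% interval 0.30 to 2.10) missed the threshold (limma adjusted p = 0.0564). The log2 fold change was larger without WT replicate 1 (1.76) and without Taf4a-/- replicate 1 (1.455). It was smaller without WT replicate 2 (0.63) and without Taf4a-/- replicate 2 (0.94).

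*Hand2* (ENSMUSG00000038193, chr8:59799780-59803314, plus strand), a factor of the right ventricle, outflow tract and neural crest, had 3351 and 2689 normalized counts in WT against 3564 and 4811 with the label Taf4a-/-. The lower mutant-labelled value was only slightly above the higher WT value. Its log2 fold change was 0.46 (SE 0.19, 95% interval 0.01 to 0.92, limma adjusted p = 0.111). Per kb, *Hand1* had 1.22 and 0.691 of the level of *Hand2* in WT, and 1.48 and 1.57 in the libraries labelled Taf4a-/-. This shift of 0.73 in the log2 ratio had an exact permutation p of 0.333 (two-sided, 0.556 adjusted). Any ratio that does not overlap between 2 and 2 libraries gives that value.

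Hand factors are also used by neural crest and trophoblast. Of the 7 listed neural crest and sympathetic markers found, 4 were tested and 0 called by limma, with 1 lower and 1 higher at an unadjusted p-value under 0.05, with sums of 83.1 to 218 normalized counts in WT and 202 to 228 in the libraries labelled Taf4a-/-. Of 5 trophoblast markers found, 3 were tested and 1, *Krt7*, was called lower, beside 17.3% of all genes tested. Over the 5 found, the sums were 1298 and 1899 against 753 and 592. At an unadjusted p-value under 0.05, 2 of the trophoblast markers tested were lower and 1 higher. *Krt7* made up most of the WT sums, with 943 and 1596 against 239 and 191, whereas *Cdx2* had 308 and 283 against 496 and 399 (limma adjusted p = 0.0586). The part of these cells in the *Hand1* and *Hand2* values was not tested.

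The WT lines themselves differed in some of these factors. From replicate 1 to replicate 2, *Gata5* differed by -1.68 and *Hand1* by -1.135 on the log2 scale, against a median absolute difference of 0.26 over all genes tested. *Tbx20*, *Gata6* and *Mef2c* differed by at most 0.039. WT replicate 1 also had more RNA of the streak gene *Eomes*, 706 against 158 normalized counts, and of the pluripotency gene *Pou5f1*, 1097 against 278. The part of that difference in the *Gata5* and *Hand1* values was not tested.

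Levels of different genes were compared per kb of exon. In WT the order ran from *Gata6* at 1694 ± 19.2 normalized counts per kb (SD, n = 2) through *Gata4* at 1381 ± 231, *Hand2* at 1351 ± 209 and *Hand1* at 1329.6 ± 704 to *Tbx20* at 565 ± 10.9. *Gata4*, *Hand2* and *Hand1* could not be ordered, since their libraries overlapped, and *Hand1* overlapped *Gata6* as well. *Mef2c* followed at 198 ± 1.04, then *Smyd1* at 172 ± 22.8, *Nkx2-5* at 164 ± 47.8, *Gata5* at 131 ± 97.2 and *Tbx5* at 73.5 ± 12.2, of which the last 4 overlapped their neighbours. *Nkx2-5* and *Gata5* each overlapped *Mef2c* too. *Gata6* exceeded 95.5% of all genes tested in WT, whereas *Nkx2-5*, at 50.4%, lay near the middle.

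In the libraries labelled Taf4a-/- the Hand factors led, *Hand1* at 2873 ± 721 normalized counts per kb (SD, n = 2) and *Hand2* at 1874 ± 394. *Gata6* at 988 ± 123 and *Gata4* at 888 ± 100.4 overlapped each other, and *Tbx20* was at 482 ± 51.4. *Gata5* at 133 ± 28.3 stood above *Mef2c* at 67.0 ± 16.9 without overlap, whereas in WT the libraries of this pair overlapped. *Smyd1* at 28.6 ± 14.6 and *Nkx2-5* at 26.1 ± 10.3 overlapped, and *Tbx5* was last at 9.79 ± 0.844, a level exceeded by all but 12.1% of the genes tested. The 5 factors at or above *Tbx20* were thus the same in both genotypes, and the 4 largest falls were all among the other 5.

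Genes around the 10 factors were followed in 4 lists. Known target genes had the lowest median. Of 25 listed, 23 were tested, and 17 were called lower and 0 higher by limma and by voom alike. The 17 were 73.9% of those tested, beside 17.3% of all genes called lower. None of the 23 was higher at an unadjusted p-value under 0.05 either, and their median log2 fold change was -2.47. *Actc1*, cardiac actin, had 7519 and 6901 normalized counts in WT against 227 and 399 with the label Taf4a-/- (log2 fold change -4.58). *Myh6*, the alpha cardiac myosin heavy chain, had 4763 and 6706 against 323 and 431 (-3.92), although its reads may be shared with *Myh7*, and *Tnnt2*, cardiac troponin T, had 2730.1 and 3281 against 484 and 470.04 (-2.65). *Csrp3*, a Z-disc protein, had 441 and 628 against 13.7 and 14.4 (-5.13). *Pln*, the inhibitor of the calcium pump, had 269 and 246 against 2.94 and 0, where the fitted change depends on the pseudocount. Of those not called, *Gja1* had a log2 fold change of -0.36, *Atp2a2* -0.28, *Des* -0.39, *Nppa* -1.55, *Nppb* -0.01 and *Gja5* 1.15. These 4 lists and the 10 factors were fixed with earlier results in view, so their counts are descriptions.

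**Figure D4:**
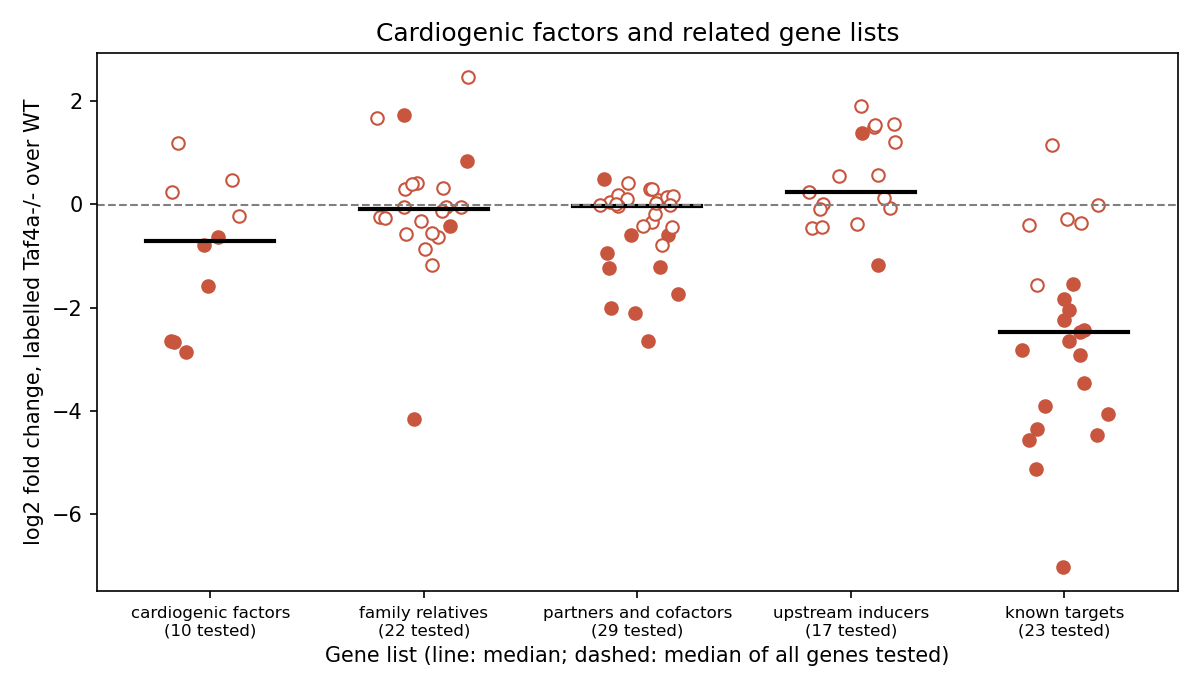
log2 fold change, libraries labelled Taf4a-/- over WT, of each tested gene of the 10 cardiogenic factors and of the 4 related lists. Filled points passed an adjusted p-value of 0.05, black lines are the medians, and the dashed line is the median of all genes tested (-0.01). The median is -0.71 for the cardiogenic factors and -2.47 for their known targets, and near 0 for relatives and partners.

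Of 29 partners and cofactors tested, 9 were called lower and 1 higher, and the median was -0.04 on the log2 scale. Called in either direction were 34.5%, beside 28.6% of all genes. Of all genes, 17.3% were called lower and 11.3% higher. *Irx4*, a ventricular homeodomain factor, had 123 and 109 normalized counts in WT against 15.7 and 19.9 with the label Taf4a-/- (log2 fold change -2.64, limma adjusted p = 0.00418). *Hdac9*, a deacetylase that represses Mef2 proteins, changed by -2.11 and *Hopx*, a small homeodomain protein without DNA binding, by -2.01. *Myocd*, the muscle coactivator of Srf, had 428 and 431 normalized counts against 143 and 114 (-1.74), and *Zfpm2*, the cofactor of Gata4, 757 and 959 against 311 and 431 (-1.21). *Hey1*, *Hey2*, *Nfatc1* and *Naca*, the last a partner of Smyd1, made up the 9. *Ep300*, a broadly expressed acetyltransferase, was the 1 called higher (0.49, adjusted p = 0.042). *Srf* itself had -0.34 (adjusted p = 0.071) and *Isl1*, of the second heart field, 0.41 (adjusted p = 0.262), and neither was called. The counts of partners called lower and higher both changed with any 1 library left out.

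Of the family relatives, 22 of 29 found were tested, 2 were called lower and 2 higher, 18.2% beside 28.6% of all genes, and the median log2 fold change was -0.08. *Tbx18*, of the sinus venosus and epicardium, had 126 and 102 normalized counts in WT against 372 and 389 with the label Taf4a-/- (log2 fold change 1.74, limma adjusted p = 0.00398). *Tbx3*, of the conduction system, had 1508 and 1119 against 2604 and 2081 (0.84, adjusted p = 0.0235). *Tbx2* had -0.05 and *Tbx1* -1.18, neither called. *Mef2d* was called lower at -0.42 (adjusted p = 0.0403) and *Mef2a* was not, at -0.31 (adjusted p = 0.192). *Mef2c* stood at -1.59 beside these, a difference that was not tested. *Gata1*, *Gata2* and *Gata3*, of blood and trophoblast, had -0.58, -0.04 and -0.55 and were not called. *Nkx2-1*, of thyroid and lung, had 83.3 and 35.3 normalized counts against 1.96 and 2.21, where the fitted change depends on the pseudocount. The count of relatives called lower changed with any 1 library left out. The count called higher changed as well, except without Taf4a-/- replicate 2.

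Upstream inducers of the network were mostly not called. Of 17 tested, 1 was lower and 1 higher, 11.8% of the list beside 28.6% of all genes, and the median log2 fold change was 0.24. *Wnt11*, a ligand of heart morphogenesis, had 730.3 and 930 normalized counts in WT against 357 and 371 with the label Taf4a-/- (log2 fold change -1.18, limma adjusted p = 0.0068). *Nodal*, the ligand of mesendoderm induction, had 359 and 158 against 623 and 618 (1.38, adjusted p = 0.0388). *Mesp1*, which specifies cardiac mesoderm, had 49.1 and 6.23 against 48.9 and 56.4, so that WT replicate 2 alone was low (limma adjusted p = 0.24). Without WT replicate 1, 7 inducers were called higher and 3 lower, beside 14.6% and 17.9% of all genes in that fit.

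The labelled cell type was checked against its markers. All 8 cardiomyocyte markers were detected in every library and all 8 were called lower, with a summed level of 22459.6 and 26546 normalized counts in WT against 1763 and 2118 with the label Taf4a-/-, a 12.6-fold lower mean. That list shares *Tnnt2*, *Actc1*, *Myh6* and *Myl7* with the known targets. All 8 pluripotent cell markers were called higher, with sums of 3957 and 1500.4 in WT against 14331 and 16074. Of 7 smooth muscle markers 4 were called lower, with sums of 30514 and 54532 against 20800.0 and 19889, and of 6 epicardial markers 2 were lower and 1 higher, with sums of 4586 and 4219 against 4462 and 5579.7. Beside these counts, 17.3% of all genes tested were called lower and 11.3% higher. The part of these cells in the values of the 10 factors was not tested.

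**Figure D5:**
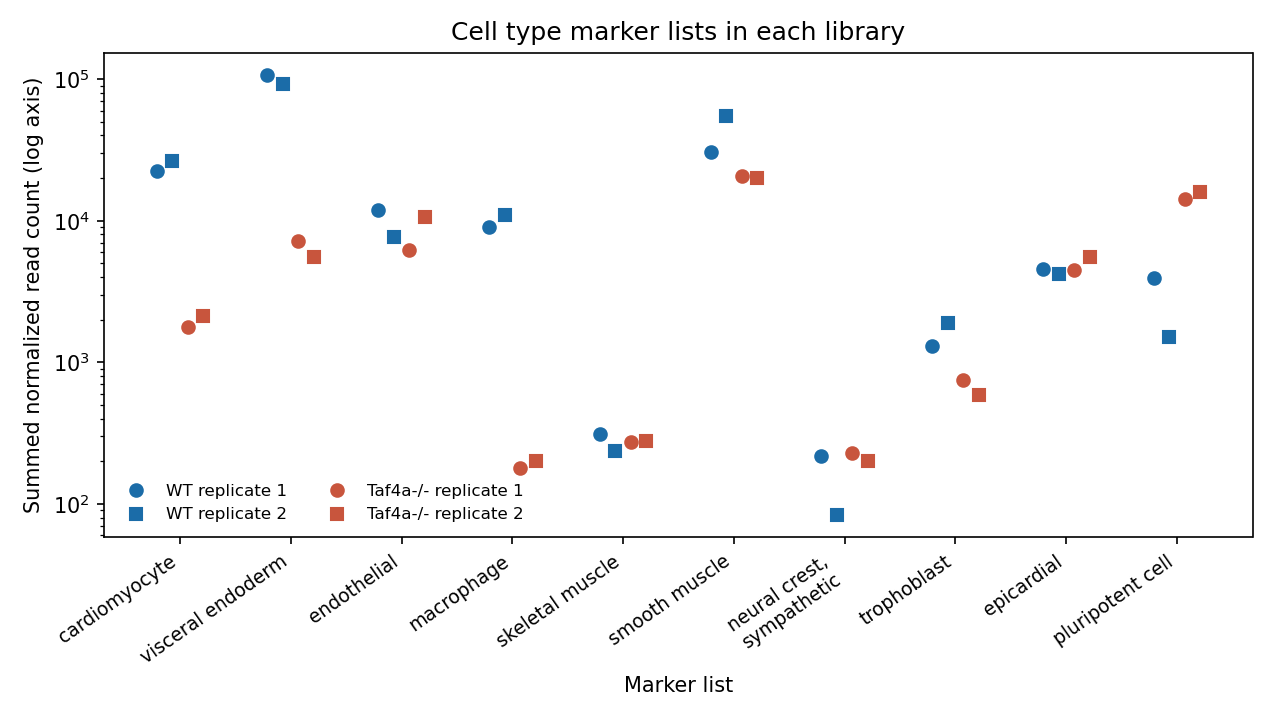
Summed normalized read count (log axis) of each list of cell type markers in each library, WT in blue and libraries labelled Taf4a-/- in red, circles for replicate 1 and squares for replicate 2. Cardiomyocyte, visceral endoderm and macrophage markers are lower in both libraries labelled Taf4a-/-, pluripotent cell markers are higher, and endothelial sums overlap.

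The mean profile of the 10 factors over the 4 libraries was also compared with that of every other gene tested. The closest genes, by the Euclidean distance of centred log2 values over 4 libraries, were *Rpl18-ps1*, *Ggt7*, *Anks1b*, *Lmo2* and *Gnb4*, at distances of 0.0699 to 0.108. *Lmo2*, a cofactor of GATA proteins in blood, had 372 and 283 normalized counts in WT against 166 and 186 with the label Taf4a-/-. *Rpl18-ps1* is a pseudogene, so its reads may be shared with its parent gene. Since the factors ranged from -2.87 to 1.20, this mean describes no single one of them.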

How the data were processed

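Messenger RNA of 2 WT and 2 Taf4a-/- ESC lines was sequenced on day 9 after plating. Per the submitters' notes, CASAVA 1.8, TopHat 1.3.3, HTSeq 0.5.3p1 and DESeq were used with mm9; the authors deposited normalized counts per gene, reads divided by 1 size factor per library, so the values are neither raw counts nor per length. The authors' paper names DESeq 2 for this step, and the annotation release is not given in the sources used here. Normalization by size factors leaves no absolute scale, and exon coverage is not kept.

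All 24637 gene identifiers were found in the NCBIM37 annotation (GENCODE), which gave positions, exon lengths and overlaps. Reads recovered by dividing by the smallest positive value were whole for 100% of values (tolerance 0.01), with 21732746 to 27733034 per library. Genes with a mean of at least 10 (16926) entered limma (version 3.58.1, R 4.3.3) with a trended prior variance on log2(value + 1), and p-values were Benjamini-Hochberg adjusted over all of them. Ratios within families were compared by exact permutation over libraries. The limma fit was tested on simulated data with large planted changes and the same low variation for every gene. That check does not cover small changes or lines that vary more. Figures used Python 3.11.15 and matplotlib 3.10.9. The members and lists were chosen with earlier results of these data known. Genes named are the members, *Taf4a*, *Taf4b*, listed genes fixed by name, the largest non-overlapping calls of each list (3 each way) and the 5 nearest profiles; *Eomes*, *Pou5f1*, *Afp*, *Cdx2* and other markers or list members with values were named after these were seen. *Mef2b*, *Hdac4*, *Myf6*, *Tfap2b*, *Tfap2c* and *Prl2c2* were not analysed here. Alternatives were other pseudocounts, filters, scalings, variance models and thresholds, a replicate block, and fits without 1 library. The voom method on recovered reads was added after seeing the data.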

Additional observations from a re-analysis of the deposited data

How the results depend on the processing

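With 2 lines per genotype, limma borrows the spread from all genes, and 26 reads lay behind the lowest value. The 6 calls among the factors held in 76 of 84 alternative values, and the 4 factors not called stayed so in 53 of 56. The exceptions were *Gata4*, *Gata6* and *Smyd1*, which lost their calls, and *Hand1* and *Gata5*, which gained one. *Gata5* had 1.08 without WT replicate 1 and -0.60 without WT replicate 2 (adjusted p = 0.048 and 0.164). *Gata4* lost its call too when the prior variance had no trend (adjusted p = 0.102), and at the 0.01 threshold. The cause was not tested, beyond fewer libraries in the fit. Planned edgeR and DESeq2 tests on counts were not run. With voom on the recovered reads, 6 factors were called lower and 0 higher, as before, beside 16.3% and 10.7% of all genes. Same-numbered libraries showed no shared deviation (correlation 0.012 over genes). With the replicate block 6 factors were lower and 0 higher, beside 15.7% and 9.07% of all genes. In that fit 1 relative was lower and 4 higher, and 0 partners and 4 inducers were higher. Quantile normalization put the median of all genes at 0.11.

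With equal library totals the median of the factors was -0.65 and 1 relative was lower. With no filter 0 partners were higher, and at a mean of at least 50, 1 relative was lower. With no variance trend 1 relative was lower and 1 higher, and 0 partners and 0 inducers were higher. Over all genes, 1741 were lower and 856 higher in that fit, and the 0.01 threshold left 1119 and 331. Leaving out WT replicate 2 gave 1222 and 745, against 2928 and 1906. Without WT replicate 1 these were 3038 and 2476, while leaving out Taf4a-/- replicate 1 gave 1988 and 625 and leaving out Taf4a-/- replicate 2 gave 1921 and 624. At an adjusted p under 0.01, 1 relative was lower and 1 higher, 4 partners were lower and 0 higher, and 0 inducers were higher. With 1 library left out, factors called lower ran from 3 to 6 and higher from 0 to 2, and their median from -0.80 to -0.69. Relatives ran from 1 to 3 lower and 1 to 4 higher, partners from 4 to 8 lower and 0 to 3 higher, and inducers from 1 to 3 lower and 1 to 7 higher.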
